A study of Homo sapiens with 12 samples.

Results

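MYC, its partners and the genes that build ribosomes were followed in 2 lymphoma cell lines, U-H01 and HBL-1, under doxycycline-switched hairpins against NF-kB subunits. The 40 genes comprised MYC, its partner MAX, the MAX-binding repressor MXD1, and 37 genes of ribosome biogenesis. They were listed by name, and each was read from a probe set annotated to that symbol alone, the brightest where there were several. Of the 40, 35 were measured among 18417 genes tested. NOP56 and PPAN were read only by probe sets shared with other symbols, and GNL3, DDX18 and EBNA1BP2 were not analysed here.

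MYC is a transcription factor that pairs with MAX and binds the DNA motif called the E-box in the promoters of growth genes, while MXD1 competes for MAX and represses such promoters. Ribosomes are assembled in the nucleolus, where RNA polymerase I makes the precursor of the ribosomal RNAs, small nucleolar RNPs modify it, and separate sets of factors fold and cut it into the small and large subunits. MYC is known for driving many of these factors, and NF-kB is a known regulator of growth in Hodgkin lymphoma and in the activated B-cell-like type of diffuse large B-cell lymphoma.

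RNA was measured on 12 single-colour arrays. U-H01, a Hodgkin lymphoma line, gave 4 arrays labelled induced and 4 uninduced, from the transduced populations B1 and B2 at 2 time points each, and HBL-1, an activated B-cell-like diffuse large B-cell lymphoma line, gave 2 induced and 2 uninduced arrays, from the population C at 2 time points. All groups carried transduced hairpins, which the labels describe as directed at RelB and cRel, with several sequences each; the design text also names RelA. Doxycycline, the inducer of the hairpin, was given to the induced arms only, so drug and hairpin cannot be told apart. The labels leave unsaid which population carried which hairpin and how long each time point was. They also leave unsaid whether the arrays within a group stem from separate cultures, so the p-values rest on a spread that may be technical. The lines were grown in different concentrations of serum, so line and serum cannot be told apart either.

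The U-H01 arrays labelled induced stood apart from the uninduced ones. Within a group, arrays correlated at 0.991 to 0.996 over all probe sets with 1 symbol, and induced with uninduced HBL-1 arrays at 0.992 to 0.994. U-H01 arrays labelled induced correlated with uninduced U-H01 arrays at 0.894 to 0.910 and with HBL-1 arrays at 0.905 to 0.917, and uninduced U-H01 arrays with HBL-1 arrays at 0.886 to 0.899. TNFRSF8, which encodes CD30, the marker of Hodgkin cells, averaged 11.59 ± 0.10 log2 in U-H01 arrays labelled induced and 6.89 ± 0.21 in uninduced U-H01 arrays (SD, n = 4 each), against 6.63 ± 0.16 in uninduced HBL-1 arrays (SD, n = 2), so the uninduced U-H01 arrays were low for it. Other Hodgkin markers went the opposite way, with CD274 at -5.79 and ID2 at -5.22 log2 in U-H01 labelled induced against uninduced U-H01. The B-cell gene PAX5 averaged 11.81 ± 0.08 and 9.05 ± 0.06 log2 in the same U-H01 groups (SD, n = 4 each), and MS4A1, which encodes CD20, was near background in both at 4.52 and 4.49. The B-cell genes CD79A and CD22 differed more than PAX5, at 5.31 and 4.11 log2 in U-H01 labelled induced against uninduced U-H01. CD79B was lower in U-H01 than in HBL-1 among uninduced and among induced arrays, at -4.59 and -4.42. The mean of 5 B-cell markers lay at 8.61 to 8.89 log2 on the arrays labelled induced and 6.23 to 6.48 on the uninduced U-H01 arrays, and the mean of 7 Hodgkin markers at 6.50 to 6.68 and 7.88 to 7.98. Markers of other cell types moved both ways between the U-H01 groups. Of 7 stromal, endothelial and epithelial markers, 1 was lower in U-H01 labelled induced, the adhesion gene PECAM1 at -5.60 log2, and 2 were higher, CDH1 at 2.32 and KRT18 at 0.51. Of 7 T- and NK-cell markers 3 were higher, ZAP70 at 2.09, NKG7 at 0.62 and CD2 at 0.36, and of 6 myeloid markers 1 was lower, ITGAM at -0.40. The T-cell gene CD3E and the myeloid gene LYZ had group means of at most 4.37 and 3.25 log2, where the lower quartile of each array was 4.18 to 4.28. The mean of 7 T- and NK-cell markers was 5.26 to 5.52 on arrays labelled induced and 4.86 to 5.03 on uninduced U-H01 arrays, that of 6 myeloid markers 4.21 to 4.47 and 4.204 to 4.395, and that of 7 stromal, endothelial and epithelial markers 5.98 to 6.09 and 6.28 to 6.47. Whether the U-H01 groups differ by the hairpin or by the cells was not tested, and every U-H01 comparison below rests on these labels. The hairpin targets RELB and REL did not pass in either line. RELB was at -0.15 ± 0.09 log2 (SE) in U-H01 (limma, adjusted p = 0.209) and at -0.19 ± 0.12 in HBL-1 (adjusted p = 0.744). REL was at 0.20 ± 0.09 in U-H01 (adjusted p = 0.0716) and passed as higher with 3 of 9 other settings and without 1 array, the B2 one labelled induced at time point 1. In HBL-1 REL was at -0.49 ± 0.12 (adjusted p = 0.121) and passed as lower when fitted on the HBL-1 arrays alone or without the U-H01 arrays labelled induced. RELA was at 0.24 in U-H01 (adjusted p = 0.0227), a call lost without any 1 of 5 arrays.

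The E-box CACGTG is shown for genes on which the comparisons below turn. RefSeq promoters of GRCh38.p14, from 250 bases before to 50 after the start site, were matched by symbol for 27 of the 35 genes. The windows are 30 bases long, written 5′ to 3′ on the gene's strand, with the motif in capitals.
PES1 (chr22:30591880-30591909, minus strand): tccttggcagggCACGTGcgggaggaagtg
UTP20 (chr12:101280083-101280112, plus strand): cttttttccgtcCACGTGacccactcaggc
BYSL (chr6:41921515-41921544, plus strand): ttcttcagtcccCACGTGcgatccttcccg
NOP2 (chr12:6568242-6568271, minus strand): gctaggtccggattgCACGTGgagggccgc
RRP9 (chr3:51941892-51941921, minus strand): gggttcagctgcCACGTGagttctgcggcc
DDX21 (chr10:68956604-68956633, plus strand): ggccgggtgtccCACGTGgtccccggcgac
WDR43 (chr2:28894658-28894687, plus strand): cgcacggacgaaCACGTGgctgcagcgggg

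FBL, GAR1, MRTO4 and NOP14 also held it, which made 11 of 27 genes, or 40.7%, against 10.9% of the 14239 tested genes with a promoter entry and 7.26% of all 35116 promoter sequences. The motif is its own reverse complement, so both strands were searched at once. Counted from the start site as 1, its first base lay at -31 in DDX21, -10 in UTP20, -5 in RRP9, 4 in WDR43, 14 in PES1, 29 in BYSL and 36 in NOP2. These matches describe letters in a window and not binding. MYC, NOP58, BOP1, NOLC1, RRS1, RRP1B, RRP12 and TCOF1 had no entry.

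The levels of most of the genes followed the line. Over the 35 genes, the span between the lowest and the highest of the 12 arrays had a median of 1.07 log2, and it passed 1 in 21 genes. The mean was highest in a HBL-1 group for 28 genes, namely in induced HBL-1 for 9 and in uninduced HBL-1 for 19. In 24 genes both HBL-1 means lay above both U-H01 means. The lowest mean fell to U-H01 labelled induced in 15 genes and to uninduced U-H01 in 16.

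MYC had 9.98 and 9.72 log2 on the B1 arrays labelled induced and 10.11 and 10.10 on those of B2, in the order of the time points. The uninduced U-H01 arrays had 9.73 and 9.53 in B1 and 9.74 and 9.48 in B2. HBL-1 had 10.68 and 10.26 on induced and 10.41 and 10.49 on uninduced arrays. All 4 HBL-1 arrays thus lay above all 8 U-H01 arrays, while the U-H01 groups overlapped because the B1 array labelled induced at time point 2 sat just below the highest uninduced arrays. In order, the means were 10.47 ± 0.30 in induced and 10.45 ± 0.06 in uninduced HBL-1 (SD, n = 2 each), which overlap, then 9.97 ± 0.18 in U-H01 labelled induced and 9.62 ± 0.13 in uninduced U-H01 (SD, n = 4 each).

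MAX, the partner through which MYC binds DNA, varied little. It had 7.72, 7.67, 7.63 and 7.71 log2 on the U-H01 arrays labelled induced, against 8.08, 7.91, 7.71 and 7.76 on the uninduced U-H01 arrays. HBL-1 had 8.06 and 8.13 on induced and 7.99 and 8.07 on uninduced arrays. The U-H01 groups overlapped at one array, and the HBL-1 values lay with or just above the highest U-H01 ones.

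MXD1 varied most of the 35, over 2.80 log2. It had 6.92, 7.40, 6.36 and 6.58 log2 on the U-H01 arrays labelled induced and 8.36, 8.21, 8.02 and 8.003 on the uninduced U-H01 arrays. HBL-1 had 5.91 and 6.15 on induced and 5.55 and 5.91 on uninduced arrays. The 3 levels did not overlap, with uninduced U-H01 on top and both HBL-1 groups at the bottom.

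**Figure D1:**
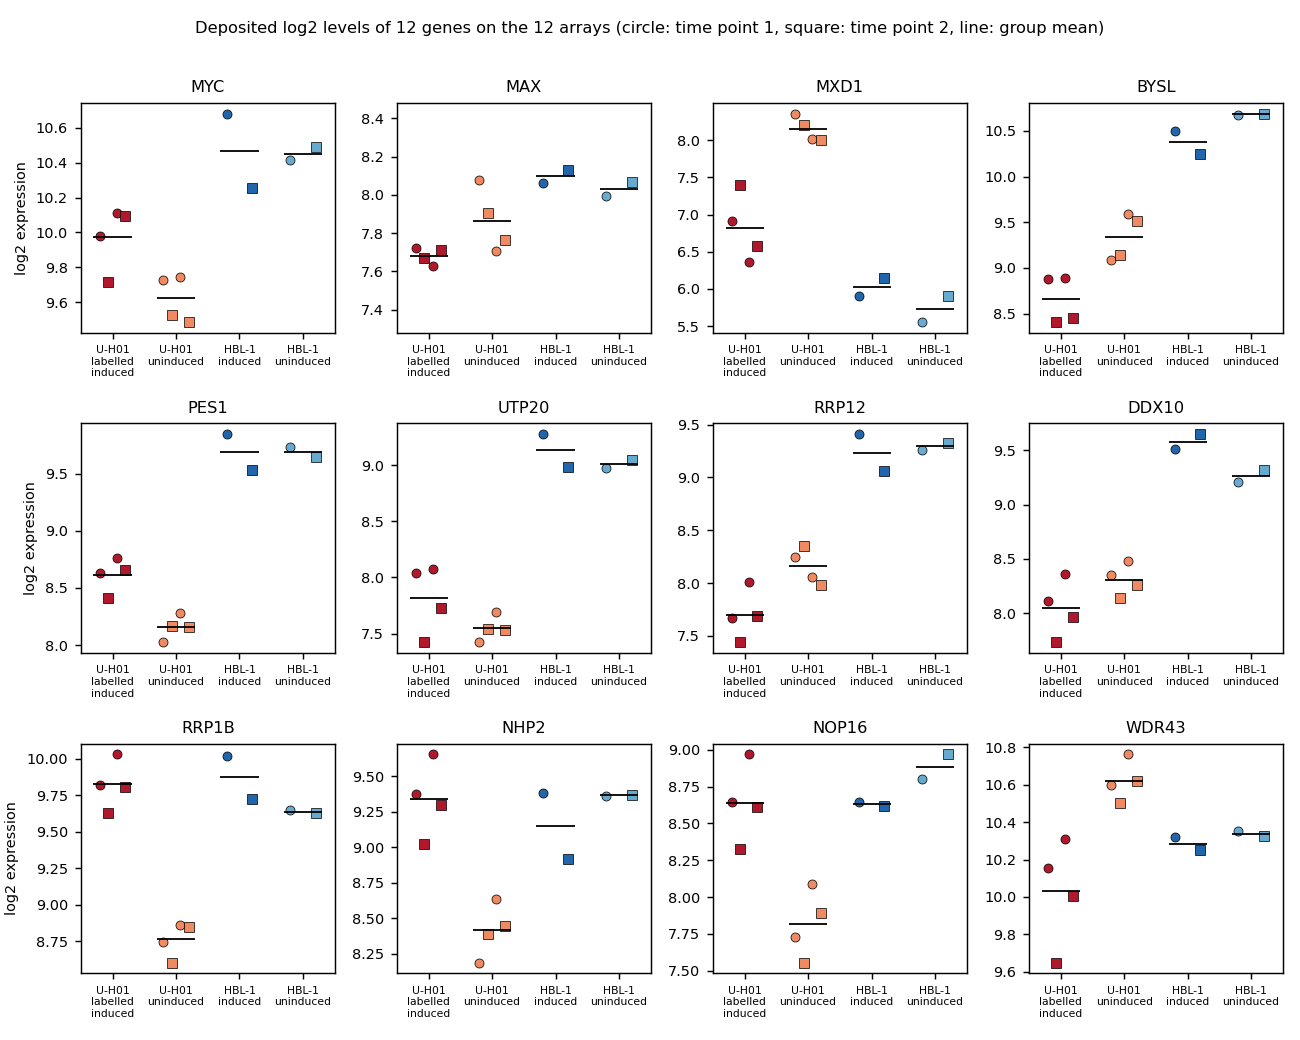
Deposited log2 levels (y axis, own scale in each panel) of MYC, MAX, MXD1 and 9 ribosome biogenesis genes on the 12 arrays, by group (x axis), with circles for time point 1, squares for time point 2 and a line at the group mean. BYSL, PES1, UTP20, RRP12 and DDX10 were higher on all 4 HBL-1 arrays than on all 8 U-H01 arrays, while RRP1B, NHP2 and NOP16 on arrays labelled induced overlapped the induced HBL-1 arrays.

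Uninduced U-H01 cells had lower levels of most ribosome biogenesis genes than uninduced HBL-1 cells. Of the 35 genes, 24 fell, 2 rose and 9 did not pass (limma, adjusted p under 0.05), against 22.1% of all genes lower and 20.8% higher. The median difference was -0.71 log2, against -0.03 over all genes. MYC was lower by 1.78-fold, at -0.83 ± 0.12 log2 (SE, adjusted p = 0.000106), and MXD1 rose most, at 2.42 ± 0.14 (adjusted p = 2.41e-08), while MAX differed by -0.17 ± 0.10 and did not pass (adjusted p = 0.231). In such bulk RNA, fewer cells that express a gene and less of its RNA per cell cannot be told apart.

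The large-subunit factor PES1, a member of the PeBoW complex that processes the large subunit's RNA, differed most among the genes that fell. It had 8.02, 8.17, 8.28 and 8.16 log2 on uninduced U-H01 arrays, against 9.74 and 9.64 on uninduced HBL-1 arrays, at -1.53 ± 0.10 (SE, adjusted p = 8.86e-08). Its PeBoW partners BOP1 and WDR12 were at -0.70 and -0.71, and both passed. The groups did not overlap for any of the 3. WDR74, a large-subunit assembly factor, had 9.30, 9.30, 9.13 and 9.07 on uninduced U-H01 arrays, against 10.41 and 10.45 on uninduced HBL-1 arrays, at -1.23 ± 0.10 (adjusted p = 7.29e-07). NOP2, a methyltransferase of the large subunit's RNA, had 9.29, 9.19, 9.64 and 9.58 on uninduced U-H01 arrays, against 10.70 and 10.68 on uninduced HBL-1 arrays, at -1.26 ± 0.11 (adjusted p = 7.06e-07). NOP16, a nucleolar factor of the large subunit, had 7.73, 7.56, 8.09 and 7.89, against 8.80 and 8.97, at -1.07 ± 0.09 (adjusted p = 1.1e-06). For these genes too every uninduced U-H01 array lay below every uninduced HBL-1 array.

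Factors of the small subunit differed as far. UTP20, a component of the small-subunit processome, had 7.42, 7.54, 7.69 and 7.53 log2 on uninduced U-H01 arrays, against 8.97 and 9.05 on uninduced HBL-1 arrays, at -1.46 ± 0.14 (SE, adjusted p = 1.92e-06). BYSL, which acts in late maturation of the small subunit, had 9.09, 9.15, 9.59 and 9.52, against 10.67 and 10.69, at -1.34 ± 0.14 (adjusted p = 5.94e-06). RRP12, a factor of precursor processing and export, had 8.25, 8.35, 8.06 and 7.99, against 9.26 and 9.33, at -1.13 ± 0.15 (adjusted p = 5.25e-05). For all of these the groups were apart by more than the spread within either. WDR43, another processome component, went the other way at 0.28 ± 0.11 (adjusted p = 0.0471), and that call was lost without any 1 of 9 arrays, with an adjusted p of up to 0.305.

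Among the nucleolar and snoRNP proteins, the fibrillarin gene FBL, whose protein methylates ribosomal RNA, was at -0.48, nucleolin (NCL) at -0.74 and nucleophosmin (NPM1) at -0.37, and all passed. Of the H/ACA proteins that guide pseudouridylation, NHP2 fell by 0.95 and GAR1 fell by 0.34, while the pseudouridine synthase DKC1 was at -0.08 (adjusted p = 0.648). Of the RNA polymerase I subunits, POLR1B was at -0.71 and passed, and POLR1A at -0.23 did not (adjusted p = 0.0735). The arrays of the groups did not overlap in 26 genes on the lower and 4 on the higher side, against 29.7% and 25.6% of all genes. Leaving out 1 array kept 18 to 24 genes lower, with 18 without the uninduced HBL-1 array of time point 2, which ended the calls of BOP1, FBL, GAR1, NPM1, PA2G4 and UTP15; all but that of BOP1 also ended without the uninduced HBL-1 array of time point 1, and PA2G4 kept its call in 2 of the 12 fits without 1 array. Fitted without the 4 U-H01 arrays labelled induced, 25 genes were lower and 2 higher. The genes that did not pass were MAX, DKC1, GRWD1, a large-subunit assembly chaperone, NIP7, NOP14, NOP58, POLR1A, RRS1 and TCOF1, at -0.34 to 0.22.

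The 4 U-H01 arrays labelled induced were also set against the 2 induced HBL-1 arrays. None of these arrays stood in the groups compared above. Both comparisons came from the same model, however, with a shared spread and shared population and time terms, so their calls are not independent. Here 21 genes fell, 2 rose and 12 did not pass, against 20.6% of all genes lower and 18.0% higher, and the median was -0.42 log2, against 0.00 over all genes. BYSL had 8.88, 8.41, 8.90 and 8.45 log2 on U-H01 arrays labelled induced, against 10.50 and 10.25 on induced HBL-1 arrays, at -1.72 ± 0.14 (SE, limma, adjusted p = 7.08e-07). DDX10, an RNA helicase of the small subunit, had 8.12, 7.73, 8.36 and 7.97, against 9.51 and 9.65, at -1.54 ± 0.09 (adjusted p = 3.97e-08). RRP12 had 7.67, 7.44, 8.01 and 7.69, against 9.41 and 9.06, at -1.54 ± 0.15 (adjusted p = 4e-06). For each of these 3 genes the highest U-H01 array labelled induced stayed more than 1 log2 below the lowest induced HBL-1 array.

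UTP20 had 8.04, 7.42, 8.08 and 7.72 log2 on U-H01 arrays labelled induced, against 9.28 and 8.99 on induced HBL-1 arrays, at -1.32 ± 0.14 (SE, limma, adjusted p = 5.59e-06). PES1 had 8.63, 8.41, 8.76 and 8.66, against 9.85 and 9.53, at -1.08 ± 0.10 (adjusted p = 2.76e-06). RRP9, a U3 snoRNP protein of the processome, had 8.27, 7.91, 8.52 and 8.28, against 9.41 and 9.07, at -0.99 ± 0.12 (adjusted p = 2.58e-05). The groups lay apart for all 3. WDR74, at -0.91, and NOP2, at -0.87, also fell, with 9.21 to 9.44 and 9.55 to 9.96 on U-H01 arrays labelled induced, against 10.26 on each and 10.45 to 10.71 on induced HBL-1 arrays. MYC was at -0.49 ± 0.12 (adjusted p = 0.00578) and MAX at -0.42 ± 0.10 (adjusted p = 0.0055). MXD1, at 0.79, and the processome factor NOP14, at 0.53, rose. The induced HBL-1 array of time point 1 decided part of the count. Without it 11 genes were lower, MYC was at -0.24 with an adjusted p of 0.386, and the calls of BOP1, FBL, MAX, NCL, NIP7, PA2G4, POLR1A, RRS1 and WDR12 also ended; without that of time point 2, 16 were lower, NOP14 no longer passed, at 0.47, and the calls of BOP1, FBL, MAX, NCL and PA2G4 ended. NCL lost its call without any 1 of 8 arrays, with adjusted p-values of 0.0527 to 0.337. The arrays of the groups did not overlap in 23 genes on the lower and 3 on the higher side, against 25.5% and 22.9% of all genes.

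In the 2 comparisons of the lines, 4073 of all genes were lower in U-H01 among uninduced arrays and 3798 among induced ones. Of these, 2229 were lower in both, which is 12.1% of all genes tested. Of the genes followed here, 17 fell in both, which is 70.8% of the 24 and 81.0% of the 21. The same cell lines stand in both comparisons. They were MYC, the PeBoW genes PES1, BOP1 and WDR12, the large-subunit factors NOP2, WDR74 and MRTO4, the small-subunit factors BYSL, RRP9, RRP12, UTP15, UTP20 and DDX10, the snoRNP proteins FBL and GAR1, nucleolin, and PA2G4, a nucleolar growth regulator. DDX21, NHP2, NOLC1, NOP16, NPM1, POLR1B and RRP1B fell in the uninduced comparison without passing in the induced one. MAX, NIP7, POLR1A and RRS1 passed as lower in the induced one alone, and for these 4 the difference between the comparisons did not pass. Of the 11 genes with the E-box, 9 fell among uninduced arrays, as did 10 of the 16 without it, and 8 and 9 did among induced ones.

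**Figure D2:**
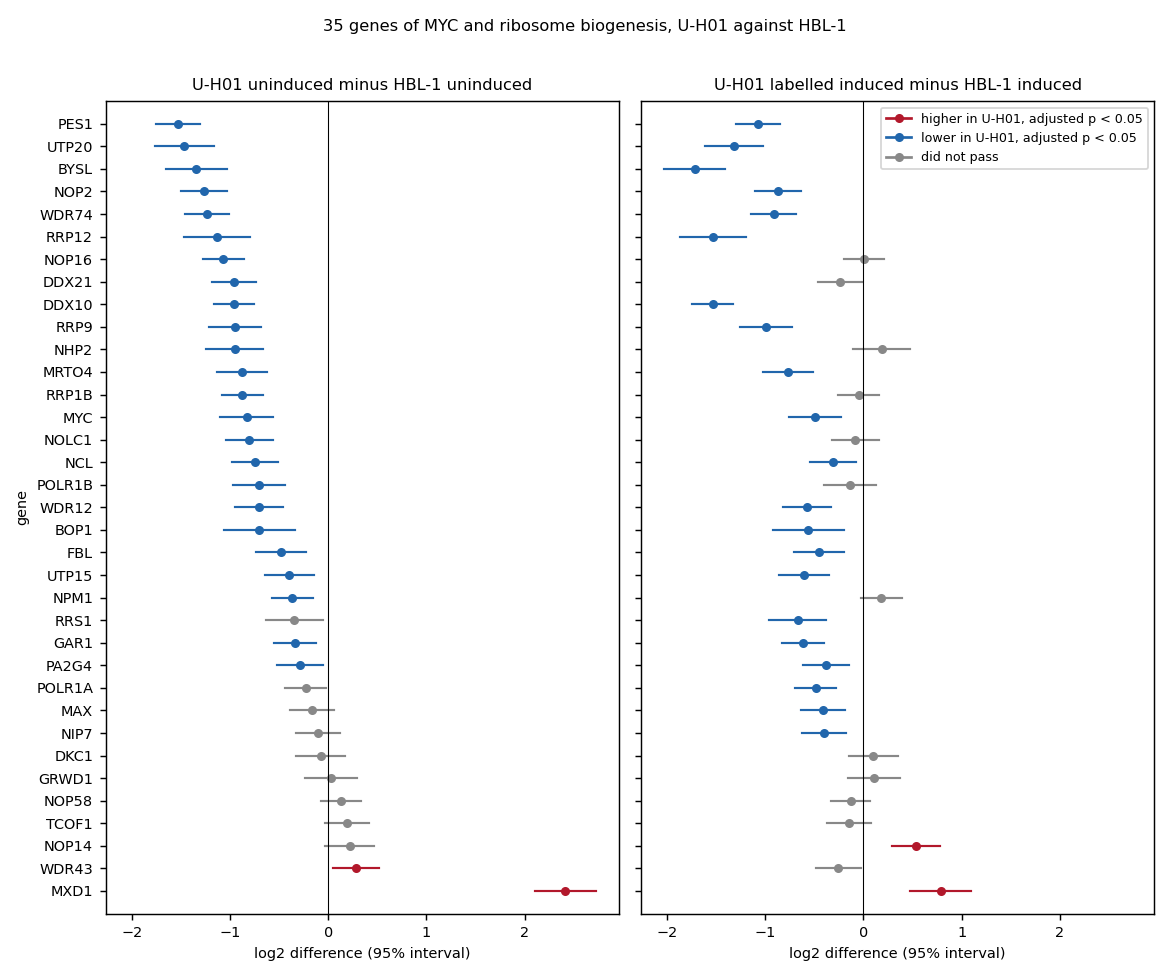
Log2 difference of U-H01 minus HBL-1 (x axis) with its 95% interval for the 35 genes (y axis), among uninduced arrays on the left and among arrays labelled induced on the right, coloured by call (limma, adjusted p under 0.05). Most genes lie left of 0 in both panels, with 24 and 21 called lower, and MXD1 lies right of 0 in both.

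Within U-H01, the genes split by direction. In arrays labelled induced against uninduced arrays, 12 genes rose, 11 fell and 12 did not pass, against 22.4% of all genes higher and 23.5% lower. The median was -0.03 log2, against 0.03 over all genes. This comparison shares its arrays with both comparisons of the lines. Centring each array on its own median moved the median of all genes to 0.18 and the higher share of called genes to 69.3% (48.8% as deposited), and it left 14 of the 35 higher and 7 lower, as DDX10, NIP7, POLR1A and RRP12 no longer passed as lower.

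MYC itself was higher in U-H01 labelled induced, by 1.28-fold, at 0.35 ± 0.10 log2 (SE, limma, adjusted p = 0.0108), and at 0.50 after centring. It was higher in 4 of 4 pairs that shared population and time point, by 0.25, 0.19, 0.36 and 0.61. MXD1 fell by 1.33 ± 0.12 log2 (adjusted p = 7.66e-07), in 4 of 4 pairs. MAX was at -0.18 ± 0.08 and did not pass (adjusted p = 0.0977).

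The largest rises were those of RRP1B, NHP2, NOP16, POLR1B and DDX21. RRP1B, a nucleolar factor of large-subunit processing, had 9.82, 9.63, 10.03 and 9.81 log2 in U-H01 labelled induced, against 8.75, 8.61, 8.86 and 8.85 in uninduced U-H01, at 1.06 ± 0.08 (SE, limma, adjusted p = 1.9e-07). NHP2 had 9.38, 9.02, 9.66 and 9.30, against 8.19, 8.39, 8.64 and 8.44, at 0.92 ± 0.11 (adjusted p = 1.23e-05), and its other probe set read 0.83. NOP16 had 8.65, 8.33, 8.97 and 8.61, against 7.73, 7.56, 8.09 and 7.89, at 0.82 ± 0.08 (adjusted p = 1.51e-06). None of these groups overlapped, and all pairs had the same sign. POLR1B, the second-largest subunit of RNA polymerase I, had 9.21, 8.83, 9.43 and 9.22, against 8.43, 8.55, 8.62 and 8.63, at 0.62 ± 0.10 (adjusted p = 0.000194). DDX21, a helicase that links RNA polymerase I transcription to processing, had 10.99, 10.55, 11.02 and 10.91, against 10.28, 10.21, 10.41 and 10.26, at 0.58 ± 0.08 (adjusted p = 7.39e-05). Both were higher on every array labelled induced than on any uninduced array. The remaining rises, between 0.29 and 0.53, were those of NOLC1, a chaperone of snoRNPs, PES1, NPM1, NOP14, NCL and NOP2. NPM1, which has near-identical pseudogenes that could share signal, was read by 4 probe sets, of which 3 gave 0.40 to 0.51 and the fourth, at a mean of 5.10, gave 0.11 and did not pass.

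After MXD1, the largest falls were those of BYSL and WDR43. BYSL had 8.88, 8.41, 8.90 and 8.45 log2 in U-H01 labelled induced, against 9.09, 9.15, 9.59 and 9.52 in uninduced U-H01, at -0.68 ± 0.12 (SE, limma, adjusted p = 0.000329). WDR43 had 10.15, 9.65, 10.31 and 10.00, against 10.60, 10.50, 10.76 and 10.62, at -0.59 ± 0.09 (adjusted p = 8.19e-05). Neither pair of groups overlapped. The other falls lay between 0.26 and 0.48 on the log2 scale and were those of GAR1, RRP12, RRS1, which recruits the 5S RNP to the large subunit, TCOF1, the Treacle gene of ribosomal DNA transcription, the box C/D protein NOP58, the large-subunit factor NIP7, the largest RNA polymerase I subunit POLR1A, and DDX10. Among the H/ACA proteins NHP2 was higher and GAR1 lower, and among the RNA polymerase I subunits POLR1B was higher and POLR1A lower. With 22.4% of all genes called higher and 23.5% lower, such mixed calls are not a result about these complexes. The call of POLR1A was lost after centring on the median, at -0.14 (limma, adjusted p = 0.171).

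Each of the 23 called genes had the same sign in all 4 pairs, and so did MAX, which did not pass. The pairs consist of the arrays that made the calls, so their signs are no separate support. The arrays of the groups did not overlap in 8 genes on each side, against 20.0% of all genes higher and 21.1% lower. Fitted apart, B1 had 11 genes higher and 12 lower (background 18.8% and 20.9%) and B2 had 10 higher and 6 lower (18.2% and 19.4%). Of these, 8 were higher and 6 lower in both. The share of all genes called in both populations was not computed, so this overlap is not a result about these genes. The difference of the responses, B2 minus B1, passed in 0 of the 35 genes in limma, with 1 at an unadjusted p under 0.05, and in 0.608% of all genes. MYC was at 0.49 in B2 (adjusted p = 0.0105) and 0.22 in B1 (adjusted p = 0.228), and the difference of 0.27, with a 95% interval from -0.14 to 0.67, did not pass. Leaving out 1 array kept 9 to 13 genes higher and 10 to 12 lower. DDX10 lost its call without the uninduced B1 array of time point 2, and NCL, NOP14 and NOP2 without either B1 array of time point 1, NOP14 also without the B2 array labelled induced of time point 1 and NOP2 also without the B1 array labelled induced of time point 2, with adjusted p-values of 0.0502 to 0.072. MYC kept its call without each array in turn, at 0.28 to 0.41. The 12 genes that did not pass, at -0.22 to 0.27, were MAX, BOP1, DKC1, FBL, GRWD1, MRTO4, PA2G4, RRP9, UTP15, UTP20, WDR12 and WDR74. DKC1 and GRWD1 passed in none of the 5 comparisons of groups and of inductions.

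In HBL-1, 0 of the 35 genes passed between induced and uninduced arrays in limma, with 2 at an unadjusted p under 0.05, against 0.608% of all genes called and 1807 at an unadjusted p under 0.05. Differences ran from -0.31 for BYSL to 0.32 for DDX10, with 25 below 0, a median of -0.06, and a smallest adjusted p of 0.307. The median was -0.17 without either HBL-1 array of time point 1 and 0.03 without either of time point 2. MYC was at 0.02, with a 95% interval from -0.29 to 0.32, and its pairs disagreed, at 0.27 for time point 1 and -0.24 for time point 2. MXD1 was at 0.30 ± 0.16 (SE) and higher in both pairs. In 12 genes the induced array was lower in both pairs, against 30.3% of all genes. With 2 arrays in a group, the interval of MYC is wide, and it is not a limit of detection. A difference larger than its bounds, that of REL at -0.49, did not pass either (limma, adjusted p = 0.121).

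**Figure D3:**
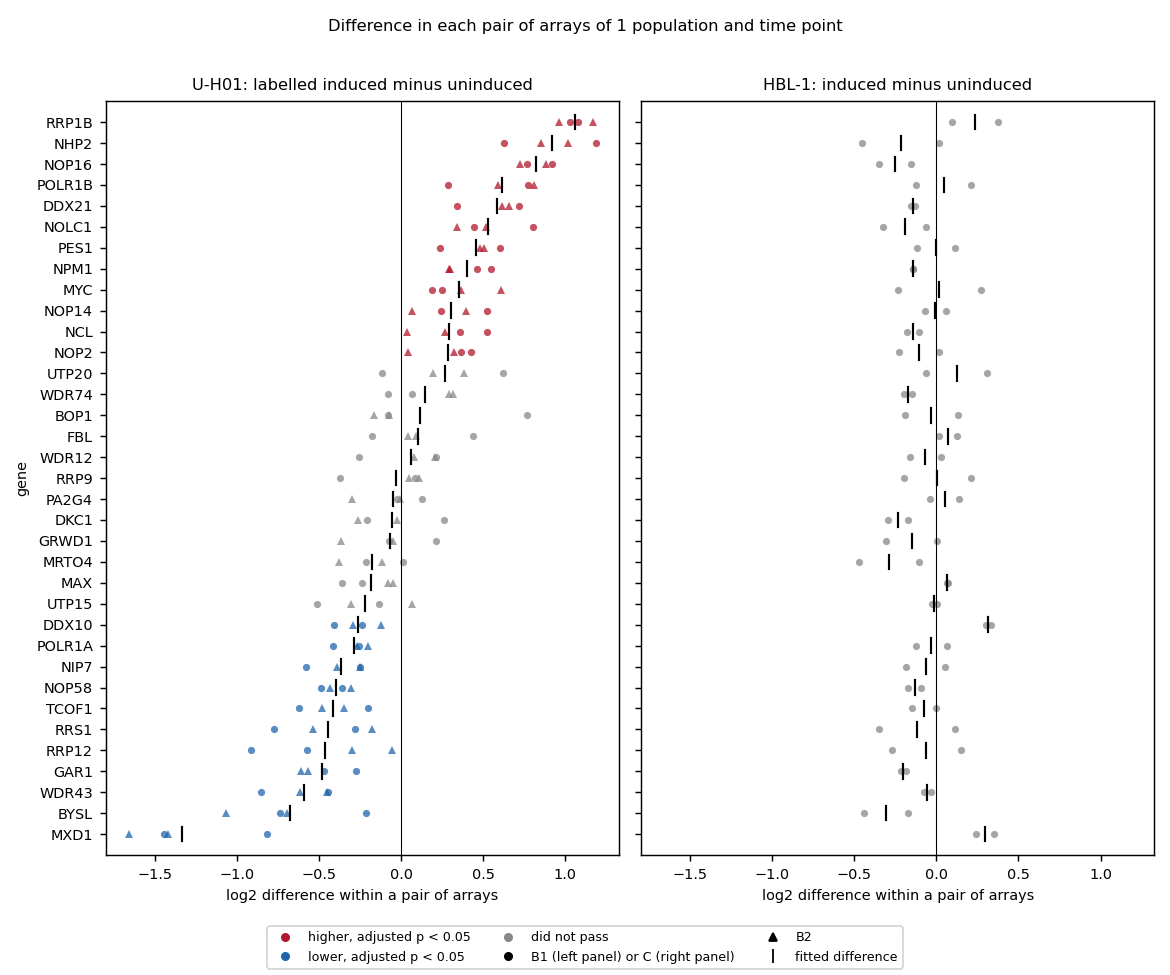
Log2 difference of each induced array minus the uninduced array of the same population and time point (x axis) for the 35 genes (y axis), in U-H01 on the left and HBL-1 on the right, with the fitted difference as a black bar and coloured by call (limma, adjusted p under 0.05). In U-H01, 12 genes were called higher and 11 lower with all 4 pairs on one side of 0; in HBL-1 0 were called.

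The induction in U-H01 minus that in HBL-1 passed in 12 genes, 9 higher and 3 lower, against 15.5% and 17.0% of all genes. NHP2 was at 1.14 ± 0.19 log2 (SE, limma, adjusted p = 0.000444), NOP16 at 1.08 ± 0.13 (adjusted p = 4.47e-05) and RRP1B at 0.82 ± 0.14 (adjusted p = 0.000495). DDX21, NOLC1, POLR1B, NPM1, PES1 and NCL, at 0.44 to 0.72, were the other genes on the higher side. MXD1 was at -1.63 ± 0.20 (adjusted p = 4.2e-05), DDX10 at -0.58 and WDR43 at -0.54. MYC, at 0.34 ± 0.17, did not pass (adjusted p = 0.173). The 7 genes that fell between the lines among uninduced arrays without passing among induced ones were among the 9, which follows in part from how they were picked, since the difference of inductions is the one line difference minus the other. NOLC1 had 10.20, 9.93, 10.25 and 10.08 log2 in U-H01 labelled induced and 9.39, 9.48, 9.73 and 9.74 in uninduced U-H01, against 10.28 and 10.11 in induced and 10.34 and 10.44 in uninduced HBL-1. Its arrays labelled induced thus overlapped the induced HBL-1 arrays, which the uninduced U-H01 arrays did not, but stayed below both uninduced HBL-1 arrays. The call of NCL was lost with pairs of arrays as a replicate block (adjusted p = 0.0621). Without either HBL-1 array of time point 2, 4 genes were on the higher side, and without either of time point 1, 6. NPM1 and WDR43 lost their calls without any 1 of the 4 HBL-1 arrays, NOLC1 and POLR1B without either of time point 2, NCL without any 1 of 10 arrays and PES1 of 9, with adjusted p-values of 0.0515 to 0.246. After centring on the median, 11 were higher and 2 lower, 62.1% of the called genes were higher (47.6% as deposited), and the median of all genes was 0.18.

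Between time points, 0 of the 35 genes passed in either line in limma, with 8 at an unadjusted p under 0.05 in U-H01 (1440 of all genes) and 0 in HBL-1 (787), and 0.0% of all genes called in either. The signs leaned one way, however, which was seen in the values and then described. At time point 2 the array labelled induced was lower than that of time point 1 in 34 of 35 genes in B1, with a median of -0.27 log2, and in 33 of 35 in B2, with a median of -0.23, and the induced HBL-1 array in 29 of 35, with a median of -0.18. Over all genes the shares were 50.9%, 47.9% and 53.3%. The uninduced arrays were lower at time point 2 in 15, 31 and 12 of 35 genes, with medians of 0.01, -0.09 and 0.04, against 48.8%, 55.7% and 50.3% of all genes.

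All 3 induced arms were lower at time point 2 in 29 genes, or 82.9%, against 15.8% of all genes, and all 3 uninduced arms in 7, or 20.0%, against 11.7%. The lowest differences were -0.62 for UTP20 in B1 labelled induced, -0.53 for UTP15 in B2 labelled induced and -0.46 for NHP2 in induced HBL-1. MXD1 went the other way in all 3 induced arms, at 0.48, 0.22 and 0.24 in B1, B2 and C. In the uninduced arms it was at -0.15, -0.01 and 0.35, in the same order. MYC was at -0.26, -0.01 and -0.43 in the induced arms, against -0.20, -0.26 and 0.08 in the uninduced ones, in the order B1, B2 and C. Each arm has 1 array per time point, so no arm has a test of its own. A model with separate induction terms for the time points, chosen after seeing the values, called 0 genes in either line, with 2 of the 35 at an unadjusted p under 0.05 in U-H01 and 0 in HBL-1; its medians were -0.24 and -0.19, with 31 and 34 of 35 genes below 0, against 49.1% and 51.8% of all genes.

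**Figure D4:**
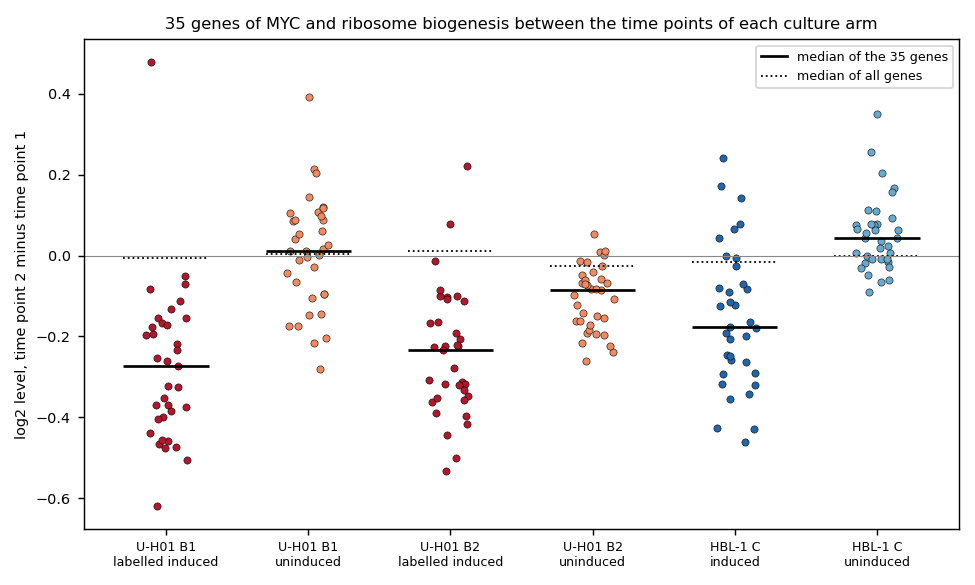
Log2 level at time point 2 minus time point 1 (y axis) for the 35 genes, 1 point each, in the 6 arms of population and induction (x axis), with a solid line at their median and a dotted line at the median of all genes. The medians of the 35 genes lie at -0.27, -0.23 and -0.18 in the 3 induced arms and at 0.01, -0.09 and 0.04 in the uninduced arms of the same populations.

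Other genes of ribosome biogenesis were counted in the same comparisons. Of 109 further genes of RNA polymerase I, the processome, large-subunit assembly, snoRNPs and export, 106 were measured. In uninduced U-H01 against uninduced HBL-1, 63 fell and 16 rose, with a median of -0.45 log2, against 22.1% of all genes lower and 20.8% higher. In U-H01 labelled induced against induced HBL-1, 57 fell and 18 rose, with a median of -0.32, against 20.6% lower and 18.0% higher. Lower in the first of these were 22 of 37 small-subunit genes, 19 of 35 large-subunit genes, 12 of 18 RNA polymerase I genes, 7 of 9 snoRNP genes and 3 of 7 export genes. LSG1, a GTPase that releases the export adaptor from the large subunit, differed at -1.60, TEX10, a large-subunit factor, at -1.52 and RRP36, of the processome, at -1.50. In U-H01 labelled induced against uninduced U-H01, 42 of the 106 rose and 35 fell, with a median of 0.07, against 22.4% and 23.5% of all genes. Of the small-subunit genes 11 rose and 14 fell, and of the large-subunit genes 16 rose and 9 fell. PWP2 and TSR1, of the small subunit, rose by 1.44 and 1.33, and RCL1, also of the processome, fell by 1.29 on the log2 scale. In HBL-1, induction called 0 of them in limma, with 7 at an unadjusted p under 0.05.

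Among 10 other genes of the MYC network, MLXIP and MYCL moved furthest in U-H01. MLXIP, which encodes the glucose-sensing MondoA, rose in U-H01 labelled induced by 1.65 ± 0.08 log2 (SE, limma, adjusted p = 4.86e-09), with 8.66 to 8.79, against 6.92 to 7.22 in uninduced U-H01. MYCL, a MYC paralog, fell by 2.55 ± 0.20 (adjusted p = 3.74e-07), with 5.31 to 5.56, against 7.31 to 8.56. In uninduced U-H01 the B1 arrays had 8.45 and 8.56 and the B2 arrays 7.58 and 7.31, and the level in HBL-1, at 5.30 to 5.56, was that of U-H01 labelled induced. MGA, a MAX-binding repressor, fell by 0.51. In all, 4 rose and 2 fell in U-H01, against 22.4% and 23.5% of all genes.

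Of 22 measured MYC target genes outside ribosome biogenesis, 16 fell and 0 rose in uninduced U-H01 against uninduced HBL-1, with a median of -0.52 log2, against 22.1% and 20.8% of all genes. In U-H01 labelled induced against induced HBL-1, 12 fell and 2 rose, with a median of -0.38, against 20.6% and 18.0%. The cyclin gene CCND2 was at -1.73 and -1.04 and the translation repressor gene EIF4EBP1 at -2.07 and -2.65. ODC1, the first enzyme of polyamine synthesis, fell by 1.38 within U-H01 on the log2 scale, with 10.39 to 10.75 in U-H01 labelled induced, against 11.79 to 12.14 in uninduced U-H01. Of 16 proliferation genes, 8 fell and 3 rose in uninduced U-H01 against uninduced HBL-1, against the same 22.1% and 20.8%, and their mean level was 9.66 to 10.06 on uninduced U-H01 arrays, against 10.17 to 10.21 on uninduced HBL-1 arrays. On arrays labelled induced it was 9.78 to 9.96, against 9.88 to 10.11 on induced HBL-1 arrays. Its part in the lower ribosome biogenesis genes was not tested.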

How the data were processed

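The members and gene lists were chosen with earlier results of these data known. Total RNA of 12 samples was read on single-colour arrays. The authors deposited log2 values, for which the submitters' processing notes name RMA and Partek without versions. RMA brings arrays to like distributions, so a shift of all genes one way can be hidden, and deposited array medians over all probe sets lay between 5.79 and 5.88 log2. The table holds 33297 probe sets, of which 19460 carried 1 symbol, 1754 several and 12083 none. Only those with 1 symbol were used, and in 769 genes with several probe sets the one with the highest mean over 12 arrays stood for the gene, which left 18417 genes. Over these genes, array medians were 6.10 to 6.20 log2 in U-H01 labelled induced and 6.30 to 6.33 in uninduced U-H01. Those of HBL-1 arrays were 6.23 to 6.27, and centring used these gene medians. Entrez identifiers matched RefSeq for 19429 probe sets. No 2 arrays held identical values (0 pairs). Precision is limited by how many arrays there are.

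Groups came from the sample titles. All comparisons came from 1 model over the 12 arrays in limma 3.58.1 (R 4.3.3; lmFit, eBayes), with population, time point within line and induction within line, 7 terms and 5 residual degrees of freedom. The comparison of B2 with B1 used a separate term for each. Tests were two-sided, with Benjamini-Hochberg adjustment over all genes and calls at an adjusted p under 0.05. Pairing came from the labels' protocols, by which the arrays of a pair stem from 1 divided population, and deviations of paired arrays correlated at 0.14 and -0.03 in B1, 0.10 and 0.03 in B2 and 0.10 in HBL-1, while U-H01 arrays of unlike number reached -0.30 to 0.16. Genes given with every array compared are MYC, MAX, MXD1 and the 8 largest called members of each comparison of groups, with WDR74 and NOP2 as ranges among induced arrays. For the difference of inductions, only NOLC1 was given anew with every array. Alternatives were the replicate block, group means only, quantile normalization, centring on the median, limma's trend and robust options, all probe sets, the mean of a gene's probe sets, genes above the median level, only the arrays compared, and leaving out each array. Plots used matplotlib 3.10.9 (Python 3.11.15).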

Additional observations from a re-analysis of the deposited data

Results flagged for a closer look

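The difference of the inductions, U-H01 minus HBL-1, passed the test in 9 of the 35 genes as higher and 3 as lower, which is 25.7% and 8.57%, against 15.5% and 17.0% of all genes. On the log2 scale it was 1.14 for NHP2, 1.08 for NOP16, 0.82 for RRP1B, 0.72 for DDX21, 0.72 for NOLC1, 0.57 for POLR1B, 0.55 for NPM1, 0.46 for PES1 and 0.44 for NCL on the higher side. On the lower side it was -1.63 for MXD1, -0.58 for DDX10 and -0.54 for WDR43. Because the U-H01 arrays labelled induced stood apart from the uninduced ones as far as from HBL-1, the part of the hairpin in these differences was not tested.

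POLR1A varied little on the 4 uninduced U-H01 arrays (SD 0.08 log2), but Dixon's test flagged 1 of them, that of B2 at time point 1. The array had 9.31 log2, against 9.17, 9.16 and 9.16 on the other 3, and its gap to the nearest took 0.934 of the range, past the critical value of Dixon's test at 95%. This was 1 of 70 groups of 4 arrays examined, and chance passes that value in about 1 group of 20.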

How the results depend on the processing

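Over 141 results and 2760 alternative values, 2556 kept their direction and side of the threshold or their size, 3 reversed, 124 no longer passed, 7 newly passed and 70 moved. Single genes were followed only if called, or if MYC, MAX, MXD1 or a hairpin target. New calls of other genes are therefore not among the 7 and show only in counts. Among genes above the median level, for example, 26 were lower between uninduced lines, against 24 in the main fit. Reversed were RELB within U-H01, at 0.0024 after centring on the median, and MYC within HBL-1, at -0.24 without either HBL-1 array of time point 1. Leaving out 1 array gave 0.28 to 0.41 for MYC within U-H01, -0.24 to 0.27 within HBL-1, -1.08 to -0.58 between uninduced lines, -0.75 to -0.24 between induced lines and 0.08 to 0.59 for the difference of inductions. The counts were 9 to 13 higher and 10 to 12 lower within U-H01, 18 to 24 lower and 1 to 2 higher between uninduced lines, 11 to 21 lower and 1 to 2 higher between induced lines, and 4 to 10 higher and 2 to 3 lower for the difference of inductions. The lone array of a group was then assumed to vary like the other groups. Centring left 7 lower within U-H01, and centring, group means only and all probe sets each left 1 higher between uninduced lines. The pairs as a replicate block gave 12 higher and 11 lower within U-H01, 0 in HBL-1, and 8 higher and 3 lower for the difference of inductions, and changed no call but that of NCL. Calls held under every setting for 15 of 23 genes within U-H01, 19 of 26 between uninduced lines, 12 of 23 between induced lines and 6 of 12 for the difference. Over all genes, HBL-1 induction called 77 higher and 35 lower, but 529 and 416 from the HBL-1 arrays alone, 211 and 111 without the U-H01 arrays labelled induced, 51 and 29 above the median level, 30 and 28 over all probe sets, and 6 to 100 and 2 to 49 without 1 array. B2 minus B1 called 70 and 42, but 137 and 85 with trend and robust options, 30 and 14 from the arrays compared, 2 and 1 over all probe sets, and 13 to 102 and 7 to 38 without 1 array. Causes were not tested.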
